A study of Homo sapiens with 4 samples.

Results

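The chemokine receptors of B cells examined here were CXCR3, CXCR4, CXCR5, CCR6, CCR7, CCR9 and CCR10, chosen by symbol, and all 7 were found among the 25066 genes of the deposited table. mRNA was sequenced from NUDUL1 cells, a line established from a human GCB-DLBCL, a diffuse large B cell lymphoma of the germinal center (GC) type. All cells carried doxycycline-inducible Cas9 in a line grown from a single cell, together with the transduced thromboxane receptor Tbxa2r, and all were treated for 24 h with 10 nM U46619, a stable thromboxane A2 analog that stimulates Gα13 through this receptor. Control cells expressed a control sgRNA and GNA13-deficient cells an sgRNA against GNA13, with 2 libraries and 1 sgRNA per genotype. Stimulation was thus the same in both genotypes, and no unstimulated cells were included. The libraries were treated duplicates that no source describes as separate experiments, and p values therefore measure the spread between these duplicates only.

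Chemokine receptors are membrane receptors that couple mainly to Gi proteins and steer cells toward higher concentrations of their chemokine. CXCR5 responds to CXCL13 and brings B cells into follicles and toward the light zone of the GC, whereas CXCR4 responds to CXCL12 and holds GC B cells in the dark zone. CCR7 responds to CCL19 and CCL21 and draws B cells to the border with the T cell zone. CCR6 (ligand CCL20), CCR9 (ligand CCL25) and CCR10 (ligands CCL27 and CCL28) take part in homing to mucosal tissue, and CXCR3 guides cells to inflamed tissue through CXCL9, CXCL10 and CXCL11. Gα13 acts by contrast through ARHGEF1 and restrains migration toward chemokines.

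The promoters of CXCR4 and CXCR5, the receptors that set dark zone and light zone position, are shown here because both mRNAs were lower in GNA13-deficient cells, and they differ in make-up. The sequences are the 250 bases before the start given by RefSeq, and each matched GRCh37 (the same assembly as hg19) at a single place. The CXCR4 stretch is chr2:136875720-136875969 on the minus strand, directly before the first exon of the main GENCODE transcript and inside the span of the gene, whose longest annotated transcript begins further upstream. That of CXCR5 is chr11:118763851-118764100 on the plus strand, between the first and second exon of the gene's main GENCODE transcript. Capitals mark matches to the motifs searched, 5′ to 3′ in the direction of each gene:
CXCR4: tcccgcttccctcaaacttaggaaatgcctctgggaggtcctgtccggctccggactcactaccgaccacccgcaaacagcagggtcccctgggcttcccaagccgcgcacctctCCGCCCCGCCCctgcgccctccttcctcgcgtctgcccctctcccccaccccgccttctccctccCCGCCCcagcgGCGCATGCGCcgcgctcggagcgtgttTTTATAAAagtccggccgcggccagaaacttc
CXCR5: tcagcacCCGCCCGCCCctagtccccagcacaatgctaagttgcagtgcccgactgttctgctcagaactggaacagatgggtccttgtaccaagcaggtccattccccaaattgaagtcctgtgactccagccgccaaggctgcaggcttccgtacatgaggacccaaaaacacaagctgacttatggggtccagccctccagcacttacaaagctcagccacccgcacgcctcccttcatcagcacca
Motifs were searched on both strands, with the letters GTAAACA for FOXO, ATGCAAAT for the octamer, GGGCGG for the GC box and TATAAA for the TATA box, and with the consensus motifs of NF-kB and NRF1. The CXCR4 stretch held 3 GC boxes, 2 of which overlap by 1 base, an NRF1 motif and 2 overlapping TATA box matches, 1 on each strand, and 68.0% of its bases were G or C. The CXCR5 stretch held 2 overlapping GC boxes and no other match, with 57.2% G or C against a median of 58.0% over 35116 promoters. Of these promoters 42.6% hold a GC box, 2.40% an NRF1 motif, 10.7% a TATA box match, 2.98% a FOXO motif, 1.63% an octamer and 5.21% an NF-kB motif. A match is a description of the letters and does not show that a factor was bound.

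Each library held between 29209544 and 31537955 mapped reads, as deposited with the values. The values are log2 normalized reads, and the whole reads behind them could be recovered. A floor of 3 reads, the number that a count of 0 allows, corresponds to log2 values from 1.56 to 1.69 and covers counting error only. GNA13 itself had log2 values of 12.46 and 12.45 in control and 13.10 and 13.11 in GNA13-deficient libraries, so its mRNA was not lower where the gene was targeted and the directions below rest on the labels. The study reported that NUDUL1 cells with GNA13 sgRNA outgrew cells without it under U46619, but not without stimulation. That was measured outside these libraries. Of 16945 genes tested with limma, 5037 had an adjusted p under 0.05, or 29.7%, with 2218 higher and 2819 lower in GNA13-deficient cells. After each library was centred on its median, 69.14% of the genes called were higher, against 44.03% as deposited, and the median difference of all genes moved from -0.024 to 0.18. The labelled cell type was checked against marker genes. The B cell markers MS4A1, CD79A, CD79B, PAX5 and CD22 had log2 values from 10.21 to 14.33 in every library. CR2, on the same list, was low, with 34 and 36 reads in control and 7 and 14 in GNA13-deficient libraries. Reads summed over 7 GC B cell markers were 29056 to 29065 in control and 26257 to 28491 in GNA13-deficient libraries. Most came from MME, at log2 values from 13.99 to 14.08. SERPINA9 was the only 1 of these 7 at 0 in all libraries. The T cell markers CD3D, CD3E and CD2 were also at 0 in all libraries. Reads summed over 6 T cell markers fell in the range 120 to 180 in control and 5 to 13 in GNA13-deficient libraries, mostly from CD4. Those summed over 6 myeloid markers were 224 to 246 in control and 25 to 29 in GNA13-deficient libraries, mostly from ITGAM and LYZ in control, with CD14, FCGR1A and MPO at 3 reads or fewer throughout. These sums moved in the same direction as CXCR4, CXCR5 and CCR7, and their part in the results was not tested. In bulk RNA a smaller number of expressing cells and less RNA per cell cannot be told apart.

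The receptors covered a wide range of levels. In RPKM, computed from the recovered reads and the length of the main transcript, CXCR4 was highest in both genotypes, with 500 and 510 in control and 288 and 301 in GNA13-deficient libraries. CXCR4 made up 98.6% to 98.7% of the summed level of the 7 receptors in every library. CCR7 came next at 5.48 and 5.60 in control and 3.51 and 3.75 in GNA13-deficient libraries. CXCR5 followed in control with 0.758 and 0.864, above CCR6 at 0.306 and 0.384. In GNA13-deficient libraries this order was turned, with CCR6 at 0.508 and 0.430 and CXCR5 at 0.101 and 0.141. No library of one receptor reached the range of its neighbour in these orders. CCR9, CCR10 and CXCR3 were at the limit of detection, where their order cannot be read.

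**Figure D1:**
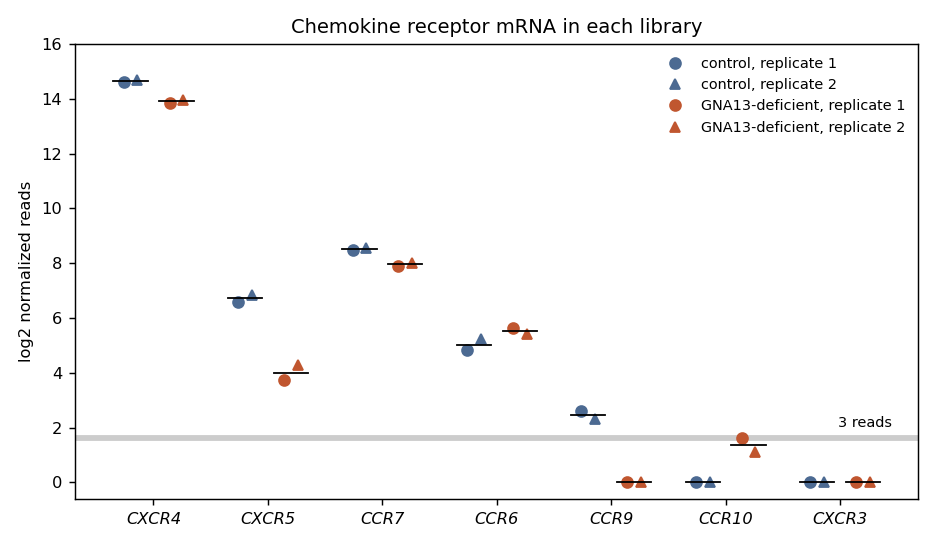
Log2 normalized reads (vertical axis) of the 7 receptors in each of the 4 libraries, with control in blue, GNA13-deficient in orange and the mean of each genotype as a bar; the gray band marks 3 reads. CXCR4, CXCR5 and CCR7 were lower in both GNA13-deficient libraries, CXCR5 by the widest margin, and CCR10 and CXCR3 did not rise above the band.

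Of the 4 receptors with more than 3 reads in every library, CXCR4, CXCR5 and CCR7 were lower in GNA13-deficient cells, where 16.6% of all genes tested were called lower and 13.1% higher, and CCR6 did not pass the test. All 4 had values that did not overlap between genotypes, as did 65.3% of all genes tested (31.3% higher and 34% lower in GNA13-deficient cells). CXCR5, the follicle-homing receptor, had the largest difference. It lies on chromosome 11 from 118754601 to 118768496 (GRCh37, plus strand) and has 2 exons. CXCR5 had 95 and 117 reads in control and 13 and 18 in GNA13-deficient libraries, or log2 values of 6.59 and 6.85 against 3.74 and 4.28. Both GNA13-deficient libraries thus lay far below both controls, and the gap exceeded the distance between replicates of either genotype. CXCR5 fell by 2.71 on the log2 scale (standard error 0.31, 95% interval -3.52 to -1.91, adjusted p = 0.00485), a 6.56-fold lower level. Without a filter on low values, when all 25066 genes were tested, the adjusted p was 0.0570. BCL9L, a gene on the opposite strand, shares 1652 of the 4293 bases of the CXCR5 transcript in its own main transcript and 3913 when all its annotated transcripts are taken. BCL9L was named for this overlap after its values were seen. Its log2 values were 8.38 and 8.76 in control and 7.32 and 7.42 in GNA13-deficient libraries, and it fell by 1.20 (standard error 0.16, adjusted p = 0.00755). The kit marked strand, but no source used here states how strand was used in counting, and without it reads of both genes cannot be told apart.

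CXCR4, the dark zone receptor, lies on chromosome 2 from 136871919 to 136876747 (minus strand, 2 exons in its main transcript). It had 24355 and 26828 reads in control and 14460 and 14886 in GNA13-deficient libraries, with log2 values of 14.60 and 14.69 against 13.86 and 13.97. Replicates lay close together, and the genotypes did not overlap. CXCR4 fell by 0.73 on the log2 scale (standard error 0.08, 95% interval -0.93 to -0.53, adjusted p = 0.00400), a 1.66-fold lower level. CCR7, on chromosome 17 from 38710021 to 38721724 (minus strand, 3 exons), showed a change of like size. It had 348 and 384 reads in control and 230 and 242 in GNA13-deficient libraries, with log2 values of 8.47 and 8.56 against 7.88 and 8.02. The genotypes again did not overlap, and CCR7 fell by 0.56 (standard error 0.11, 95% interval -0.84 to -0.28, adjusted p = 0.0197), a 1.48-fold lower level. This call depended on the scaling of the libraries. With quantile normalization the CCR7 difference was -0.38 with an adjusted p of 0.0674, and after median centring it was -0.35 with an adjusted p of 0.0771, whereas CXCR4 and CXCR5 passed under both. The adjusted p of CCR7 was 0.0712 without a filter on low values and 0.0521 without a variance trend. Relative to GAPDH, which had a difference of 0.49 itself (adjusted p = 0.0502), the differences were -1.22 for CXCR4, -3.20 for CXCR5 and -1.05 for CCR7.

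CCR6, the receptor for CCL20, was the only one of the 4 with a higher mean in GNA13-deficient cells. It lies on chromosome 6 from 167525295 to 167552629 (plus strand, 3 exons). CCR6 had 28 and 38 reads in control and 48 and 40 in GNA13-deficient libraries, with log2 values of 4.83 and 5.23 against 5.62 and 5.43. The genotypes did not overlap, but the gap between their nearest libraries was smaller than the distance between the control replicates. The difference was 0.50 (standard error 0.29, 95% interval -0.25 to 1.24, adjusted p = 0.267), and both 0 and 1.24 lie within this interval. With quantile normalization it was 0.96 (adjusted p = 0.0557), and relative to GAPDH it was 0.0090. An annotated readthrough gene overlaps CCR6 on the same strand, and reads could be split between them.

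**Figure D2:**
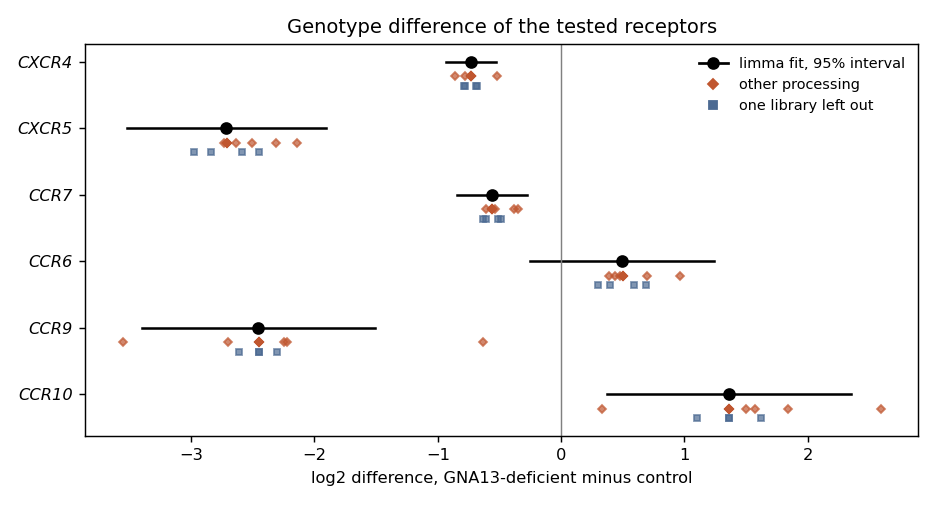
Log2 difference between GNA13-deficient and control cells (horizontal axis) for the 6 receptors tested, with the limma estimate and its 95% interval in black, the other processing settings as orange diamonds and the fits without 1 library as blue squares. The values of CXCR4, CXCR5 and CCR7 stayed below 0 throughout, those of CCR6 above 0, and those of CCR9 and CCR10, which rest on a few reads, spread widely.

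The remaining receptors were barely detected. CCR9, the receptor that guides lymphocytes to the small intestine (chromosome 3 from 45925917 to 45944666, plus strand), had 6 and 5 reads in control and 0 in both GNA13-deficient libraries. The observed control mean of CCR9 was 1.75-fold above the floor of 3 reads per library, with no allowance for counting error in control. It entered the test only because control libraries had reads (adjusted p = 0.00962), and a gene that enters in this way had to differ. CCR10, the mucosal receptor for CCL27 and CCL28 (chromosome 17 from 40830907 to 40835935, minus strand), had 0 reads listed in control and 3 and 2 in GNA13-deficient libraries. Both genotypes were thus at or under the floor and no fold is given (adjusted p = 0.0541). CCR10 entered the test only through its GNA13-deficient libraries, so the direction of its difference was set in advance. CXCR3, on chromosome X from 70835766 to 70838361 (minus strand), had 0 reads in all 4 libraries and was not tested. The limit set by 3 reads was 0.0589 to 0.0636 RPKM for CXCR3.

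Ratios between receptors within a library do not depend on a scaling factor common to all its genes, and all 6 pairs of the 4 detected receptors were compared. The order of CCR6 and CXCR5 showed the largest change. In read-based log2 values CCR6 minus CXCR5 was -1.76 and -1.62 in control and 1.88 and 1.15 in GNA13-deficient libraries. In RPKM, CCR6 stood at 0.403 and 0.445 times the level of CXCR5 in control and at 5.05 and 3.04 times in GNA13-deficient libraries. CXCR4 minus CXCR5, the balance of the dark zone and light zone receptors, was 8.0 and 7.84 in control and 10.12 and 9.69 in GNA13-deficient libraries, a difference of 1.98 against at most 0.43 between replicates. CXCR4 minus CCR7 changed least, from 6.13 and 6.13 in control to 5.97 and 5.94 in GNA13-deficient libraries, a difference of -0.17 against at most 0.031 between replicates. CCR6 minus CCR7 differed by 1.06, CCR6 minus CXCR4 by 1.23 and CXCR5 minus CCR7 by -2.15. Quantile normalization, which changes values gene by gene, gave -0.48 for CXCR4 minus CCR7, 1.45 for CXCR4 minus CXCR5 and 3.27 for CCR6 minus CXCR5. With 2 libraries per genotype the exact two-sided permutation p was 0.333 for each pair, also after adjustment over the 6 pairs, and this is the smallest value the design allows.

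**Figure D3:**
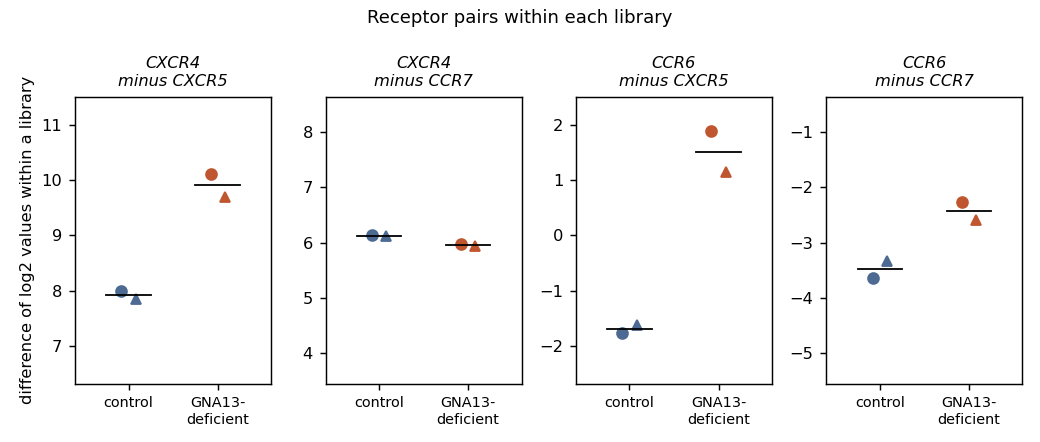
Difference of the log2 values of 2 receptors within each library (vertical axis, each panel spanning the same range), with circles for replicate 1, triangles for replicate 2 and bars for the mean of each genotype. CXCR4 minus CXCR5 and CCR6 minus CXCR5 were higher in both GNA13-deficient libraries by 1.98 and 3.21 on average, while CXCR4 minus CCR7 moved by -0.17.

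The profile over the 4 libraries was compared between each receptor called and all other tested genes, as a description without a test. GIMAP2 and DNAJC15 lay nearest to CXCR4, with root mean square distances of 0.0057 and 0.010 on the log2 scale, and 329 genes lay within 0.1. SNRNP35 (0.0078) and NOTCH4 (0.0089) lay nearest to CCR7, with 526 genes within 0.1. The profile of CXCR5 was less common, since 8 genes lay within 0.1, the nearest being FAM63A (0.052) and GPX7 (0.056). For CCR9, LOC100288303 had the same values in each library (distance 0) and FAM125B lay at 0.016, all at a few reads.

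Other chemokine receptors were mostly at low levels. Of 16 such genes 8 had at most 3 reads in all libraries, and of 13 tested CCR1 rose while 3 fell, against 29.7% called among all genes. CCR1, an inflammatory receptor of myeloid cells, had log2 values of 5.11 and 4.56 in control and 7.70 and 7.88 in GNA13-deficient libraries (difference 2.95, standard error 0.26, adjusted p = 0.00272). CXCR2, listed under its older symbol IL8RB, fell by 3.30 (adjusted p = 0.00310), and the scavenger receptors ACKR3 (listed as CXCR7, a second receptor for CXCL12) and ACKR4 (listed as CCRL1) fell by 2.96 and fell by 2.81 (adjusted p = 0.00467 and 0.00829). ACKR3 had 43 and 56 reads in control and 6 and 6 in GNA13-deficient libraries. ACKR4 had 19 and 17 reads in control and 3 and 2 in GNA13-deficient libraries. The latter lie at or under the floor of 3 reads, so the size of its fall is uncertain. The median difference of the 13 was -0.49, beside -0.024 over all genes, and became -0.25 with quantile normalization and -0.29 after median centring. Ligands were scarce, and 6 of 11 were at 0 in all libraries, among them CXCL12, CCL19, CCL21 and CCL20. Of the ligands with reads, CCL28, a mucosal chemokine that binds CCR10, fell by 3.46 (adjusted p = 0.00283) from log2 values of 6.00 and 6.22 to 2.62 and 2.69, and CXCL11, which binds CXCR3, rose by 3.18 (adjusted p = 0.0328) to 4.29 and 4.11 from 2.02 and 0. CXCL13, the ligand of CXCR5, had values of 4.11 and 2.56 in control and 3.74 and 3.43 in GNA13-deficient libraries (difference 0.24, adjusted p = 0.807).

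Receptor kinases and arrestins, which switch off and internalize active receptors, included 2 that rose and 3 that fell of 7 tested (71.4%, beside 29.7% over all genes). Their median of -0.10 became 0.10 after median centring. ARRB1, encoding an arrestin, had log2 values of 8.29 and 8.39 in control and 4.62 and 4.35 in GNA13-deficient libraries, and it fell by 3.85 (standard error 0.20, adjusted p = 0.00114). ARRB2, its close relative, rose by 0.69 (adjusted p = 0.00225). Among the kinases GRK5 fell by 1.04 and GRK2, listed as ADRBK1, fell by 0.44 (adjusted p = 0.00198 and 0.00758), the latter with an adjusted p of 0.0653 after median centring. Of 16 genes tested that carry the signal from Gi to Rac 2 rose and 2 fell (25%, beside 29.7% over all genes), with a median of 0.063. After median centring 7 rose and 0 fell, with a median of 0.27. In that setting 6235 of 16945 genes were called, 69.14% of them higher. RAC2 rose by 0.77 and DOCK2 by 0.35, whereas ELMO1 fell by 0.30 and RAC1 fell by 0.29 (adjusted p from 0.00224 to 0.0401). DOCK2 did not pass with quantile normalization (adjusted p = 0.0948), and ELMO1 and RAC1 did not after median centring (adjusted p = 0.469 and 0.531). GNAI2 and GNAI3, the main Gi subunits with reads here, differed by 0.19 and 0.12 (adjusted p = 0.206 and 0.191). Of 8 genes for sorting and turnover of receptors 3 rose and 0 fell (37.5%, beside 29.7% over all genes), with a median of -0.017. After median centring 4 rose and the median was 0.19. ITCH, the ubiquitin ligase that sends CXCR4 to degradation, rose by 0.36, DTX3L by 0.61 and USP14, a deubiquitinating enzyme that acts on CXCR4, by 0.44 (adjusted p = 0.0118, 0.00587 and 0.00513).

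Homing partners and transcription factors tied to the receptor genes held calls in both directions. Among 8 adhesion molecules that act with these receptors 1 rose and 2 fell (37.5%, beside 29.7% over all genes). Their median of -0.22 became -0.015 after median centring. ITGB7, the integrin chain of gut homing, had log2 values of 8.25 and 8.17 in control and 5.17 and 5.39 in GNA13-deficient libraries, and it fell by 2.93 (adjusted p = 0.00151). ITGA4, the partner chain of ITGB7, rose by 0.40 (adjusted p = 0.0370, but 0.0962 with quantile normalization). Of 9 transcription factors tested 2 rose and 3 fell (55.6%), with a median of -0.041 that became 0.17 after median centring. KLF2, a regulator of lymphocyte trafficking genes, fell by 1.65 (adjusted p = 0.000991), and POU2AF1 and POU2F2, B cell octamer factors, fell by 0.56 and fell by 0.45 (adjusted p = 0.00376 and 0.0209, the latter 0.0802 after median centring). NFKB2 rose by 0.33 (adjusted p = 0.0176). FOXO1, a regulator of CXCR4 and of the dark zone, differed by -0.041 (adjusted p = 0.702) and by 0.17 after median centring, and its log2 values of 11.89 and 11.98 in control overlapped those of 11.96 and 11.83 in GNA13-deficient libraries.

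Genes of the GC zones did not move as a block with CXCR4, although the dark zone list includes CXCR4 itself and many genes of dividing cells. The study reported fewer NUDUL1 cells in the S-G2 phases of the cell cycle after U46619, dependent on Gα13. The part of cell division in these values was not tested. Of 10 dark zone genes 5 rose and 2 fell (70%, beside 29.7% over all genes), with a median of 0.33 that became 0.54 after median centring. CDC20, MKI67 and CCNB1, all genes of dividing cells, rose by 0.84, 0.78 and 0.59 (adjusted p from 0.00337 to 0.0129), and the 2 that fell were CXCR4 itself and CCNB2, a mitotic cyclin that did not pass after median centring (adjusted p = 0.0876). Of 13 light zone genes, CCR6 included, 3 rose and 3 fell (46.15%). Their median of 0.29 became 0.56 with quantile normalization and 0.50 after median centring. CD86, a costimulatory ligand, had log2 values of 8.61 and 8.51 in control and 4.50 and 4.81 in GNA13-deficient libraries and fell by 3.91 (adjusted p = 0.00108), and TRAF1 fell by 1.18, while CD83 and CD40 rose by 0.65 and 0.47 (adjusted p from 0.00532 to 0.0313). TRAF1 did not pass with quantile normalization (adjusted p = 0.0935). Among 6 GC B cell markers tested, BCL6, the GC master repressor, fell by 2.49 from log2 values of 10.75 and 10.89 to 8.23 and 8.44 (adjusted p = 0.000850), and FAS rose by 0.96 (adjusted p = 0.0353). Among the B cell markers MS4A1 fell by 0.57 and CR2 fell by 1.75 (adjusted p = 0.00477 and 0.0461). CR2 did not pass with quantile normalization or median centring (adjusted p = 0.103 and 0.0590). Receptors for lipids and oxysterols that also place B cells were compared last. Of the 7 tested 42.9% were called, and their median was -0.36, but -0.079 with quantile normalization and -0.16 after median centring. Of the 7, S1PR1, the receptor for lymph node exit, fell by 0.69, P2RY8, a Gα13-coupled confinement receptor, fell by 0.62, and GPR183, the oxysterol receptor, rose by 0.52 (adjusted p = 0.00347, 0.00485 and 0.00867). S1PR2, the other Gα13-coupled receptor of GC B cells, had overlapping values of 5.52 and 5.11 in control and 5.32 and 4.81 in GNA13-deficient libraries.

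**Figure D4:**
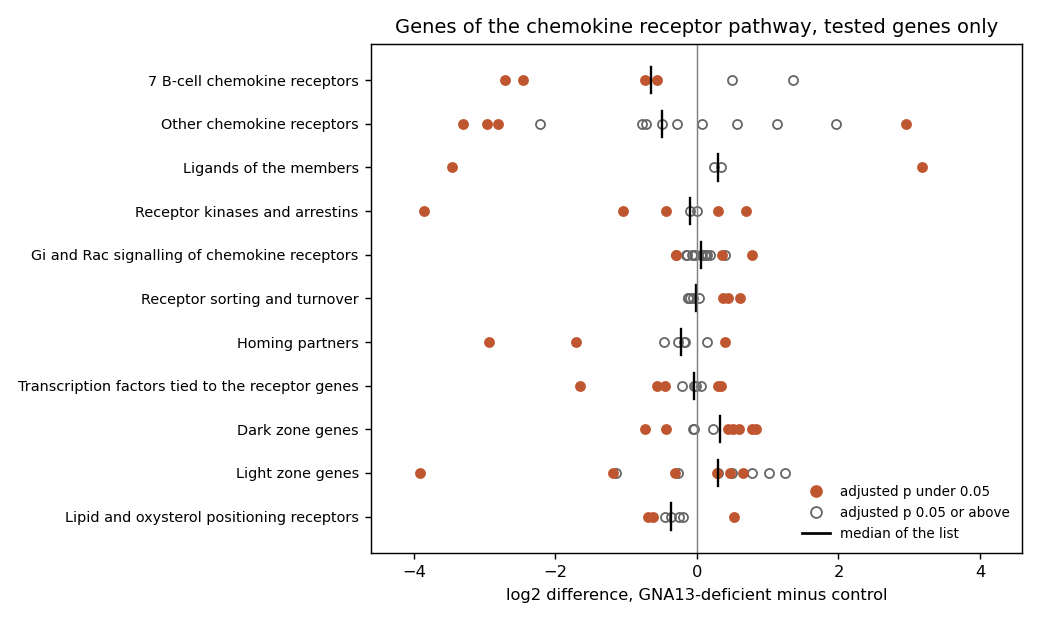
Log2 difference between GNA13-deficient and control cells (horizontal axis) for the tested genes of each list (rows), with filled circles for an adjusted p under 0.05, open circles for the others and a bar for the median. Differences of CXCR5 and several genes of other lists lie below -2, while most genes lie near 0; over all genes tested 16.6% were called lower and 13.1% higher.

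All calls rest on both libraries of each genotype. When any single library was left out, no gene of 16945 had an adjusted p under 0.05, although 5257 to 5600 genes had an unadjusted p under 0.05, and the adjusted p lay between 0.0811 and 0.0895 for CXCR4, between 0.0749 and 0.101 for CXCR5 and between 0.10 and 0.147 for CCR7. Their differences in these fits ranged over -0.79 to -0.68, -2.98 to -2.45 and -0.63 to -0.49, in this order.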

How the data were processed

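RNA sequencing was measured in 2 control and 2 GNA13-deficient libraries of NUDUL1 cells, grouped by their titles. Libraries were made with a stranded poly(A) kit. STAR and the hg19 build were used for alignment, and the authors deposited log2 normalized reads of 25066 genes, with a row of total mapped reads on a linear scale. The submitters' processing notes name HTSeq; the annotation, the strand setting and the method of normalization are not given in the sources used here. Low values step in whole reads (100% of values up to 400 reads in each library), which were recovered; in control replicate 2 a single read falls below the lowest listed value, 0, so that a 0 there can stand for 1 read.

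Differences were fitted with limma 3.58.1 in R 4.3.3 (mean-variance trend, genotype as the only term, no pseudocount) on the 16945 genes above 0 in at least 2 libraries, with Benjamini-Hochberg adjustment over all of them and a threshold of 0.05. The receptors, lists and alternatives were chosen with earlier results of these data known. Genes named were the receptors, GNA13, GAPDH, up to 4 genes per list with the largest difference among those called without overlap, and the 2 nearest profiles per receptor; further genes were named after their values were seen. A few genes of the lists are counted but not reported here by name. Lengths and positions are from GENCODE on GRCh37, promoters from RefSeq (GRCh38.p14, matched by sequence to GRCh37), found for 5 of the 7 receptors. Alternatives were other filters, pseudocounts of 1 and 10, quantile normalization, median centring, a replicate block, other variance models, voom on recovered reads and leaving out each library.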

Additional observations from a re-analysis of the deposited data

How the results depend on the processing

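In the 11 alternatives that kept all libraries, CXCR4 and CCR7 kept their direction, as did CXCR5 and CCR6 in the 10 that tested them. CCR9 and CCR10 could hardly change direction, since 1 genotype had 0 reads. CXCR4 had an adjusted p of at most 0.0494 (limma, as throughout). Without a filter on low values 1999 of 25066 genes were called in place of 5037 of 16945. Of the receptors 2 were called, CXCR4 and CCR9, the latter with reads in control only. CXCR5 was at -2.71 with an adjusted p of 0.0570 and CCR7 at -0.56 with 0.0712. The lists then held 5 calls among 7 kinases and arrestins and 3 among 11 transcription factors. There were 2 each among 16 other receptors, 10 dark zone genes, 8 homing partners and 7 lipid and oxysterol receptors. Ligands, Gi and Rac, sorting, light zone, B cell, GC B cell, T cell and myeloid genes held 1 call each. With genes above the median level only, 4083 of 8473 genes were called. Of the receptors 2 were tested and 2 called, and 0 other receptors, ligands, T cell or myeloid markers were tested. With quantile normalization CCR7 was -0.38 (adjusted p = 0.0674). After median centring 6235 of 16945 genes were called, CCR7 was -0.35 (0.0771) and CCR10, at 1.57, passed (0.0311). Calls rose to 7 of 16 tested among Gi and Rac genes and to 4 of 6 among GC B cell markers. With no variance trend 2718 of 16945 genes were called, CCR7 was -0.56 (0.0521) and CCR10, at 1.36, passed (0.0455). Both calls of CCR10 rest on reads in GNA13-deficient libraries only, at or under the floor, and cannot be read as a change. With no variance trend there were also 4 calls among other receptors. Kinases and arrestins, dark zone genes, light zone genes and lipid and oxysterol receptors held 3 each. Transcription factors, homing partners, B cell, T cell and myeloid markers held 2 each, and ligands, Gi and Rac, sorting and GC B cell genes 1 each. With voom on recovered reads 5013 of 16945 genes were called, and 5 of 8 homing partners, all 5 lower in GNA13-deficient cells. The causes were not tested.

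With the replicate number as a block 6616 of 16945 genes were called, 5011 of them shared with the 5037, with 7 other receptors, 8 Gi and Rac genes and 5 homing partners. The block changed no call of a receptor: CXCR4 stayed at -0.73, CXCR5 at -2.71, CCR6 at 0.50, CCR7 at -0.56, CCR9 at -2.45 and CCR10 at 1.36, with 4 receptors called. No source pairs the libraries, and deviations of same-numbered libraries had a correlation of 0.453 over 8473 genes.

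Leaving out a library gave 0 calls of any gene, receptor or list, with differences from -0.79 to -0.68 for CXCR4, -2.98 to -2.45 for CXCR5, 0.30 to 0.69 for CCR6, -0.63 to -0.49 for CCR7, -2.61 to -2.30 for CCR9 and 1.10 to 1.62 for CCR10. The library left alone in its genotype was assumed to vary like the other pair. Depth limits CXCR3, CCR9 and CCR10, which had at most 6 reads in any library.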
